A study of Sus scrofa with 32 samples.

Results

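The 36 genes described here carry glucose into the muscle cell, break it down to lactate, and build and break down glycogen. They were taken by name from a gene set of 19533 protein-coding genes on placed pig chromosomes, and all 36 were found. They comprise 2 genes of glucose uptake, 2 of glucose trapping, 9 of upper and 10 of lower glycolysis, 7 of glycogen synthesis and 6 of glycogen breakdown. For each gene, the length of genome under called peaks was measured inside the gene's span extended by 5 kb on each side, separately in each of 24 CUT&Tag libraries. CUT&Tag uses an antibody-directed transposase to cut out the chromatin that carries a given histone mark. The cells were pig satellite cells, from which muscle fibres regenerate, and were profiled with antibodies to H3K4me3, H3K27ac or H3K27me3. Each mark was profiled in 4 conditions with 2 libraries per condition. The conditions were WT at 0 h, WT at 60 h, and the same times with the label CBP. CBP stands for treatment with SGC-CBP30, which binds the bromodomains of 2 related acetyltransferases, CBP and p300. The labels give the dose as 5 uM/ml, an unusual unit that could not be resolved, over 48 h of proliferation and 60 h of differentiation. The treatment text naming SGC-CBP30 is attached to all 32 samples, WT included, so the WT group was taken as untreated from the titles and genotype field alone, and no vehicle is named. Each comparison of CBP with WT rests on that reading of the labels. Time comes from the sample titles, since the treatment field names proliferation for the 60 h samples too. The cell line and growth fields name C3H cells in RPMI medium beside the pig as organism and satellite cells as cell type. A further 8 IgG samples were not analysed here. Nothing says that the 2 libraries of a condition came from separate cultures, so every p-value measures only the spread between libraries, which may be technical. In a bulk sample, fewer cells of a type and less mark per cell cannot be told apart.

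Glycolysis splits glucose into pyruvate in a fixed series of enzyme steps and yields ATP without oxygen. Skeletal muscle relies on it for short, intense work, and stores glucose as glycogen for that purpose. Several steps have a form that predominates in mature muscle beside forms found in most tissues: ENO3 beside ENO1 and ENO2 for enolase, PFKM beside PFKL and PFKP for phosphofructokinase, PGAM2 beside PGAM1 for phosphoglycerate mutase, and PYGM beside PYGL and PYGB for glycogen phosphorylase. H3K4me3 sits at active promoters, H3K27ac at active promoters and enhancers, and H3K27me3 over regions silenced by Polycomb.

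The peak lists differed in length in ways that touch every value below. H3K4me3 lists covered 17.3 to 27.6 Mb, with the shortest in CBP at 0 h. H3K27ac lists covered 20.2 and 18 Mb in WT at 60 h, 13 and 11.6 Mb in WT at 0 h, 11.7 and 9.26 Mb in CBP at 60 h, and 6.3 and 4.77 Mb in CBP at 0 h. H3K27me3 lists covered 1.11 to 7.26 Mb in WT, 9.42 and 10.4 Mb in CBP at 60 h, and 25.1 and 34.7 Mb in CBP at 0 h. How deeply the libraries were sequenced is unknown here. The cell type label was checked against markers. Satellite cell and myoblast markers such as PAX7 and MYF5 carried H3K4me3 in every library, at a summed 14 to 36.4 kb over 7 genes. Markers of differentiating myocytes summed to 0.945 to 1.51 kb in WT and 0.249 to 0.271 kb in CBP at 0 h, against 22.2 to 22.3 kb in WT and 8.96 to 10.4 kb in CBP at 60 h, over 6 genes found. Fibroblast markers also carried the mark, at 6.77 to 12.6 kb over 4 genes, while 4 endothelial and 2 chondrocyte markers had no base of H3K4me3 in any library. Blood cell markers summed to 4.22 to 7.4 kb over 4 genes, with PTPRC and CD3E at 0. The sums were at most 0.906 kb for adipocyte markers, with ADIPOQ and LEP at 0, and 1.25 kb for smooth muscle markers, with MYH11 at 0. In H3K27ac, satellite cell markers summed to 16.5 to 17.9 kb in WT and 5.19 to 7.93 kb in CBP at 0 h, and 29.6 to 32.4 kb in WT and 16 to 21.8 kb in CBP at 60 h. Myocyte markers summed to 0.467 to 0.67 kb in WT at 0 h, 8.93 to 10.6 kb in WT at 60 h and 2.09 to 5.13 kb in CBP at 60 h, with ACTA1 at 0. Fibroblast markers moved with the glucose genes' H3K27ac, from 1.02 to 1.67 kb in WT at 0 h to 6.9 to 12.7 kb in WT at 60 h and 1.29 to 3.16 kb in CBP at 60 h, with PDGFRA at 0. In CBP at 0 h, myocyte and fibroblast markers had no base of H3K27ac. Blood cell markers also moved, from 0.614 to 0.727 kb in WT at 0 h to 1.47 to 2.14 kb in WT and 0.325 to 0.69 kb in CBP at 60 h. Endothelial markers carried at most 0.72 kb of H3K27ac, with TIE1 at 0, and adipocyte, chondrocyte and smooth muscle markers carried none. The part of these differences in the results for the glucose genes was not tested. Windows overlapped another protein-coding gene for 26 of the 36 genes, so that bases counted for these genes can belong to the neighbour as well. Neighbours are named beside the values of the genes described at length. Of the other windows, PFKFB4 shares its own with UCN2 and COL7A1, GYG1 with HLTF, UGP2 with VPS54 and LOC106507380, PGAM1 with EXOSC1, and PHKB with ITFG1. Sizes are given as kb under peaks for the 2 libraries of a condition, and changes as the difference in log2(bp + 500) ± its standard error. Each change was tested with limma over all genes of the mark, and was called at an adjusted p below 0.05.

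H3K4me3 was listed at 35 of the 36 genes in at least 1 library, and at 32 of them in all 8 libraries. The exception was PPP1R3A, a glycogen-targeting subunit of protein phosphatase in striated muscle, which had no base of any of the 3 marks. H3K27ac was listed at 31 genes in at least 1 library and at 7 in all 8. It was listed in both libraries of a condition at 17 genes in WT at 0 h, 27 in WT at 60 h, 12 in CBP at 0 h and 12 in CBP at 60 h. The share of all protein-coding genes listed in this way was 32.2% and 44.2% in WT, and 18% and 26.7% in CBP, at 0 h and 60 h. H3K27me3 was listed at 4 genes only. Summed over the 36 windows, H3K27ac covered 29.4 and 29.8 kb in WT at 0 h, 79.5 and 72.4 kb in WT at 60 h, 15.9 and 10 kb in CBP at 0 h, and 27.8 and 21.6 kb in CBP at 60 h. The corresponding H3K4me3 sums were 86.3 and 85.4 kb, 123 and 122 kb, 73.2 and 72.1 kb, and 112 and 111 kb. WT at 60 h was thus the highest condition in both marks, and no library of another condition reached it.

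**Figure D1:**
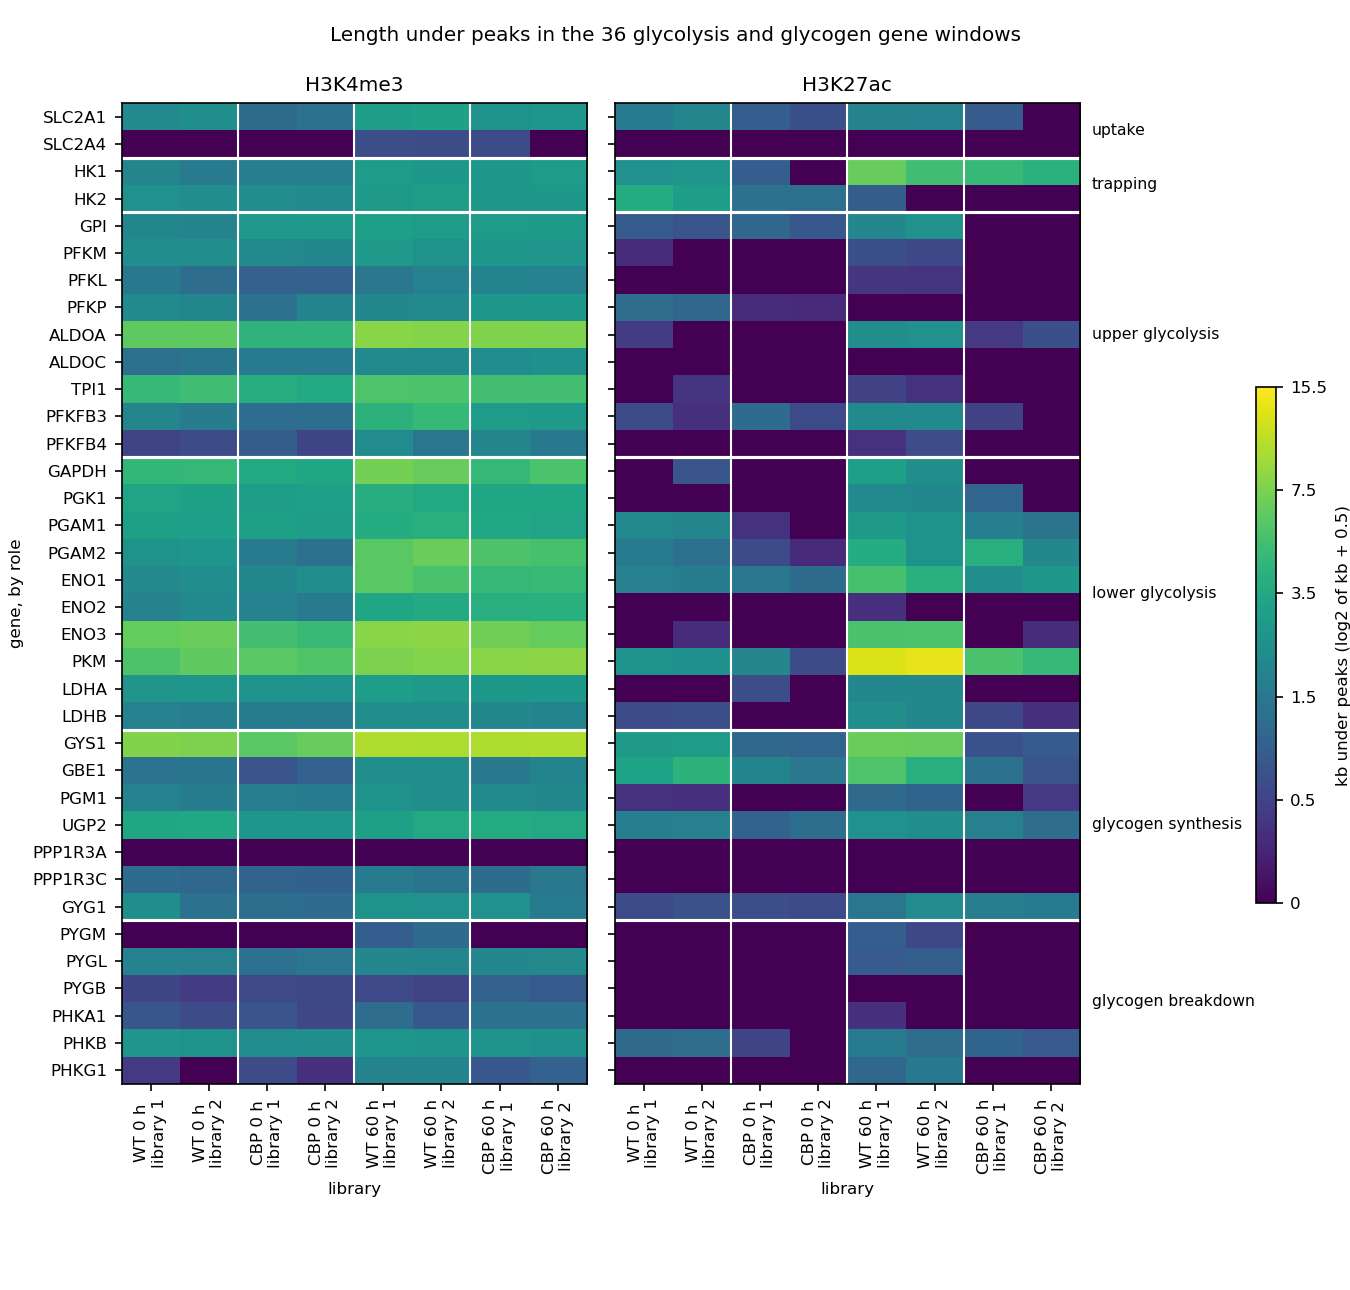
Length under H3K4me3 (left) and H3K27ac (right) peaks for each of the 36 genes (rows, ordered by role) in each of the 8 libraries of the mark (columns). Colour gives log2(kb + 0.5). Brighter colours are longer lengths. H3K27ac is brightest in the 2 WT 60 h columns, where 27 genes are listed in both libraries, while H3K4me3 fills 32 rows throughout.

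In WT cells, the comparison of 60 h with 0 h asks how the marks on glucose genes differ between proliferating and differentiating cells. Of the 35 genes tested for H3K4me3, 25 rose and 0 fell, where 42.2% of all genes rose and 5.84% fell. Of the 29 tested for H3K27ac, 19 rose and 2 fell, where 46.8% of all genes rose and 10.6% fell. PFKL, PFKFB4, PYGM, PYGL and PHKG1 had no H3K27ac base outside WT at 60 h. They passed the filter of 200 bp in 2 libraries only through that condition. For them no fall was possible, and their small p-values partly reflect that selection. PFKM, TPI1, GAPDH, PGK1 and LDHA had too few libraries with H3K27ac bases outside WT at 60 h to pass that filter. Their testing thus also depended on WT at 60 h. The same held for PYGM and SLC2A4 in H3K4me3. The median change over the tested genes was 0.35 in H3K4me3 and 1.06 in H3K27ac, beside 0.18 and 0.69 over all genes. With the libraries scaled to a common distribution of lengths, the split was 12 higher and 3 lower in H3K4me3, beside 18.2% and 27% of all genes, and 12 higher and 2 lower in H3K27ac, beside 20.7% and 20.9%. That scaling moved the median of all genes to -0.07 in H3K4me3 and to 0.01 in H3K27ac, and the glucose genes' median stood 0.15 and 0.42 above it. Under that scaling, 12 of the 25 H3K4me3 calls and 14 of the 21 H3K27ac calls held. The H3K4me3 changes of TPI1, PGK1 and PFKM turned to -0.0446, -0.0370 and -0.0256. Those of SLC2A1, SLC2A4, HK2, ALDOA, PGAM1, ENO3, PKM, LDHB, GYS1 and PGM1 no longer passed, nor did the H3K27ac changes of GPI, PFKM, PFKL, PFKFB4, GYS1, PGM1 and GYG1. Leaving out the first or the second WT library at 60 h left 9 and 10 genes higher in H3K27ac, of 24 that then passed the filter. Only members chosen by rule, described under processing, were followed by gene when a library was left out. Among these, the H3K4me3 calls of SLC2A4 and PFKM and the H3K27ac calls of PGK1 and PFKM were lost without any of several libraries. Calls at other genes could be lost without being named.

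Uptake and trapping came first in the pathway. SLC2A1, the basal glucose transporter GLUT1, had 2.08 and 2.33 kb of H3K4me3 at 0 h and 2.97 and 3.14 kb at 60 h, a change of 0.40 ± 0.07 (adjusted p = 0.00406). Its H3K27ac was 1.62 and 1.94 kb and then 1.86 and 1.78 kb, so that the groups overlapped. SLC2A4, the insulin-responsive transporter GLUT4 (chromosome 12, 52628746 to 52634965, Sscrofa11.1), was listed at 0 in H3K4me3 at 0 h and had 0.649 and 0.613 kb at 60 h (adjusted p = 0.0296). Those bases lay at -1.07 to -0.385 kb from the gene's low-coordinate end, within CLDN7, and no base remained when flank positions nearer to another gene were left out. SLC2A4 passed the H3K4me3 filter only with WT at 60 h, and no fall in WT was possible. HK1, a hexokinase that traps glucose as glucose 6-phosphate, rose in H3K4me3 from 1.92 and 1.61 kb to 2.86 and 2.66 kb, by 0.53 ± 0.08 (adjusted p = 0.00216), in a window that reaches TACR2. HK2, the hexokinase of insulin-sensitive tissues (chromosome 3, 68155656 to 68231187), gained H3K4me3 and lost H3K27ac. Its H3K4me3 rose from 2.38 and 2.24 kb to 2.7 and 2.95 kb, by 0.24 ± 0.06 (adjusted p = 0.0145), in a domain at the gene's high-coordinate end. With lengths scaled to a common distribution this was 0.0468 and did not pass (adjusted p = 0.594). Its H3K27ac fell from 3.75 and 2.94 kb to 0.886 and 0 kb, a change of -2.20 ± 0.47 (adjusted p = 0.0123), and no other gene lay in its window. Without the first WT library at 0 h the H3K27ac change no longer passed, at an adjusted p of 0.0625 from limma.

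Of the 9 genes of upper glycolysis, 7 rose in H3K4me3, beside 42.2% of all genes. In H3K27ac 6 of 8 tested rose and 1 fell, beside 46.8% and 10.6% of all genes. GPI, which turns glucose 6-phosphate into fructose 6-phosphate, gained H3K4me3 from 1.96 and 1.85 kb to 3.05 and 2.85 kb (0.52 ± 0.05 (adjusted p = 0.00038)) and H3K27ac from 0.843 and 0.727 kb to 1.97 and 2.38 kb (1.06 ± 0.14 (adjusted p = 0.00234)), in a window shared with PDCD2L. The next step has 3 phosphofructokinase genes, taken up with the other isoform families below. PFKFB3, which makes the phosphofructokinase activator fructose 2,6-bisphosphate, had 1.91 and 1.63 kb of H3K4me3 at 0 h and 4.14 and 4.57 kb at 60 h, a rise of 1.10 ± 0.07 (adjusted p = 0.000113). Its H3K27ac rose from 0.599 and 0.298 kb to 2.1 and 2.13 kb, by 1.48 ± 0.39 (adjusted p = 0.0249). The related PFKFB4 rose in H3K4me3 from 0.518 and 0.623 kb to 2.15 and 1.46 kb (1.09 ± 0.20 (adjusted p = 0.00529)). The 60 h libraries stood above both 0 h libraries for all of these values.

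The 2 aldolases cleave fructose 1,6-bisphosphate, and ALDOA is the form of muscle. ALDOA rose in H3K4me3 from 6.32 and 6.29 kb to 8.12 and 7.94 kb (0.33 ± 0.03 (adjusted p = 0.000548)), and in H3K27ac from 0.42 and 0 kb to 2.25 and 2.4 kb (2.06 ± 0.31 (adjusted p = 0.00362)), in a window shared with LOC110260082 and PPP4C. ALDOC, best known from brain, rose in H3K4me3 from 1.29 and 1.42 kb to 2.1 and 2.09 kb (0.49 ± 0.05 (adjusted p = 0.000729)) and had no base of H3K27ac in any library; PIGS and SPAG5 share its window. TPI1, the isomerase that joins the 2 triose branches, had 4.59 and 5.01 kb of H3K4me3 and then 5.68 and 5.5 kb, a change of 0.20 ± 0.05 (adjusted p = 0.0194) in a window shared with LRRC23, SPSB2 and USP5. PFKFB4 and PFKL had no base of H3K27ac at 0 h, so the size of their H3K27ac changes depends on the added 500 bp and is not given.

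Of the 10 genes of lower glycolysis, 9 rose in H3K4me3, and 7 of 9 tested rose in H3K27ac, beside 42.2% and 46.8% of all genes. None was lower in either mark, beside 5.84% and 10.6%. In H3K27ac, GAPDH, PGK1 and LDHA passed the filter only with WT at 60 h. Summed over the 10 windows, H3K27ac covered 8.48 and 8.87 kb in WT at 0 h and 39.7 and 36.4 kb at 60 h. GAPDH, which oxidises glyceraldehyde 3-phosphate, rose in H3K4me3 from 4.43 and 4.51 kb to 7.3 and 6.68 kb (0.59 ± 0.09 (adjusted p = 0.00284)) and in H3K27ac from 0 and 0.734 kb to 3.03 and 2.32 kb (2.01 ± 0.42 (adjusted p = 0.0116)). IFFO1 and NCAPD2 share its window. PGK1, the first ATP-producing step, had 3.3 and 3.14 kb of H3K4me3 and then 3.85 and 3.59 kb (0.18 ± 0.05 (adjusted p = 0.0218)), and went from no listed base to 2.11 and 2.01 kb of H3K27ac (adjusted p = 0.0125), with TAF9B in its window. PKM, the pyruvate kinase of muscle and growing cells (chromosome 7, 60971807 to 61032780), had 2.48 and 2.36 kb of H3K27ac at 0 h and 12.8 and 13.7 kb at 60 h, a rise of 2.23 ± 0.36 (adjusted p = 0.00451). At 60 h its window held 14 and 16 separate H3K27ac peaks, most of them inside the gene, from about 30 to 60 kb from the low-coordinate end. Its H3K4me3 rose from 5.58 and 6.34 kb to 7.57 and 7.92 kb, by 0.35 ± 0.06 (adjusted p = 0.00519), and GRAMD2A begins just past its high-coordinate end. LDHA and LDHB encode the 2 lactate dehydrogenase subunits. LDHA, whose window reaches LDHC, had 2.53 and 2.6 kb of H3K4me3 at 0 h and 2.93 and 2.76 kb at 60 h, a difference of 0.12 ± 0.04 (adjusted p = 0.0549) that did not pass, while its H3K27ac went from no listed base to 1.99 and 2 kb (adjusted p = 0.00466). LDHB rose in H3K4me3 from 1.81 and 1.74 kb to 2.33 and 2.29 kb (0.30 ± 0.04 (adjusted p = 0.00209)) and in H3K27ac from 0.585 and 0.644 kb to 2.27 and 1.99 kb (1.24 ± 0.16 (adjusted p = 0.00182)).

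Among glycogen synthesis genes, 3 of 6 tested rose in H3K4me3 and 3 of 5 in H3K27ac, beside 42.2% and 46.8% of all genes. GYS1, the glycogen synthase of muscle (chromosome 6, 54234600 to 54250211), had 7.79 and 7.63 kb of H3K4me3 at 0 h and 10.1 and 9.95 kb at 60 h (0.36 ± 0.05 (adjusted p = 0.00139)). Its H3K27ac went from 2.73 and 2.86 kb to 6.82 and 6.67 kb (1.14 ± 0.10 (adjusted p = 0.000418)), in a window shared with FTL and RUVBL2. PGM1, which interconverts glucose 1- and 6-phosphate, rose from 1.83 and 1.67 kb to 2.47 and 2.27 kb of H3K4me3 (0.35 ± 0.06 (adjusted p = 0.00578)) and from 0.329 and 0.311 kb to 1.16 and 1.02 kb of H3K27ac (0.95 ± 0.27 (adjusted p = 0.0311)). GBE1, the branching enzyme, rose in H3K4me3 from 1.36 and 1.42 kb to 2.3 and 2.26 kb (0.56 ± 0.11 (adjusted p = 0.00767)). Its H3K27ac, 3.25 and 4.18 kb and then 5.64 and 3.9 kb, overlapped between the times and did not pass. Ranked by the authors' −log10 p-value, its strongest H3K27ac peak at 60 h stood at percentile 99.5 and 99.6 of the library's own peak list. GYG1, glycogenin, which primes the glycogen chain, rose in H3K27ac from 0.584 and 0.685 kb to 1.45 and 2.16 kb (1.01 ± 0.17 (adjusted p = 0.00511)), but its H3K4me3 of 2.28 and 1.33 kb and then 2.42 and 2.37 kb did not pass. UGP2, which makes UDP-glucose, had 3.36 and 3.47 kb and then 3.1 and 3.54 kb of H3K4me3, and the groups overlapped. PPP1R3C, another glycogen-targeting subunit, had 1.17 and 1.1 kb and then 1.56 and 1.39 kb of H3K4me3 (adjusted p = 0.0509) and no base of H3K27ac.

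Among glycogen breakdown genes, 2 of 6 rose in H3K4me3, and 3 of 4 tested rose in H3K27ac, beside 42.2% and 46.8% of all genes. The 3 in H3K27ac, PYGM, PYGL and PHKG1, passed the filter only through WT at 60 h, so that count was partly fixed by the filter. The phosphorylases are described with the isoform families. Phosphorylase kinase activates them, and PHKG1 encodes its catalytic subunit of muscle. PHKG1 had 0.401 and 0 kb of H3K4me3 at 0 h and 1.84 and 1.89 kb at 60 h (1.82 ± 0.29 (adjusted p = 0.00309)). It went from no listed base to 1.08 and 1.53 kb of H3K27ac (adjusted p = 0.000236). PHKG1 lies entirely within the span of SUMF2, with CHCHD2 also in its window, so the bases of the 2 genes cannot be told apart. PHKA1, a regulatory subunit of muscle, had 0.76 and 0.625 kb and then 1.22 and 0.796 kb of H3K4me3 and did not pass. PHKB, a further regulatory subunit, had 2.53 and 2.48 kb and then 2.58 and 2.51 kb of H3K4me3, with overlapping groups.

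**Figure D2:**
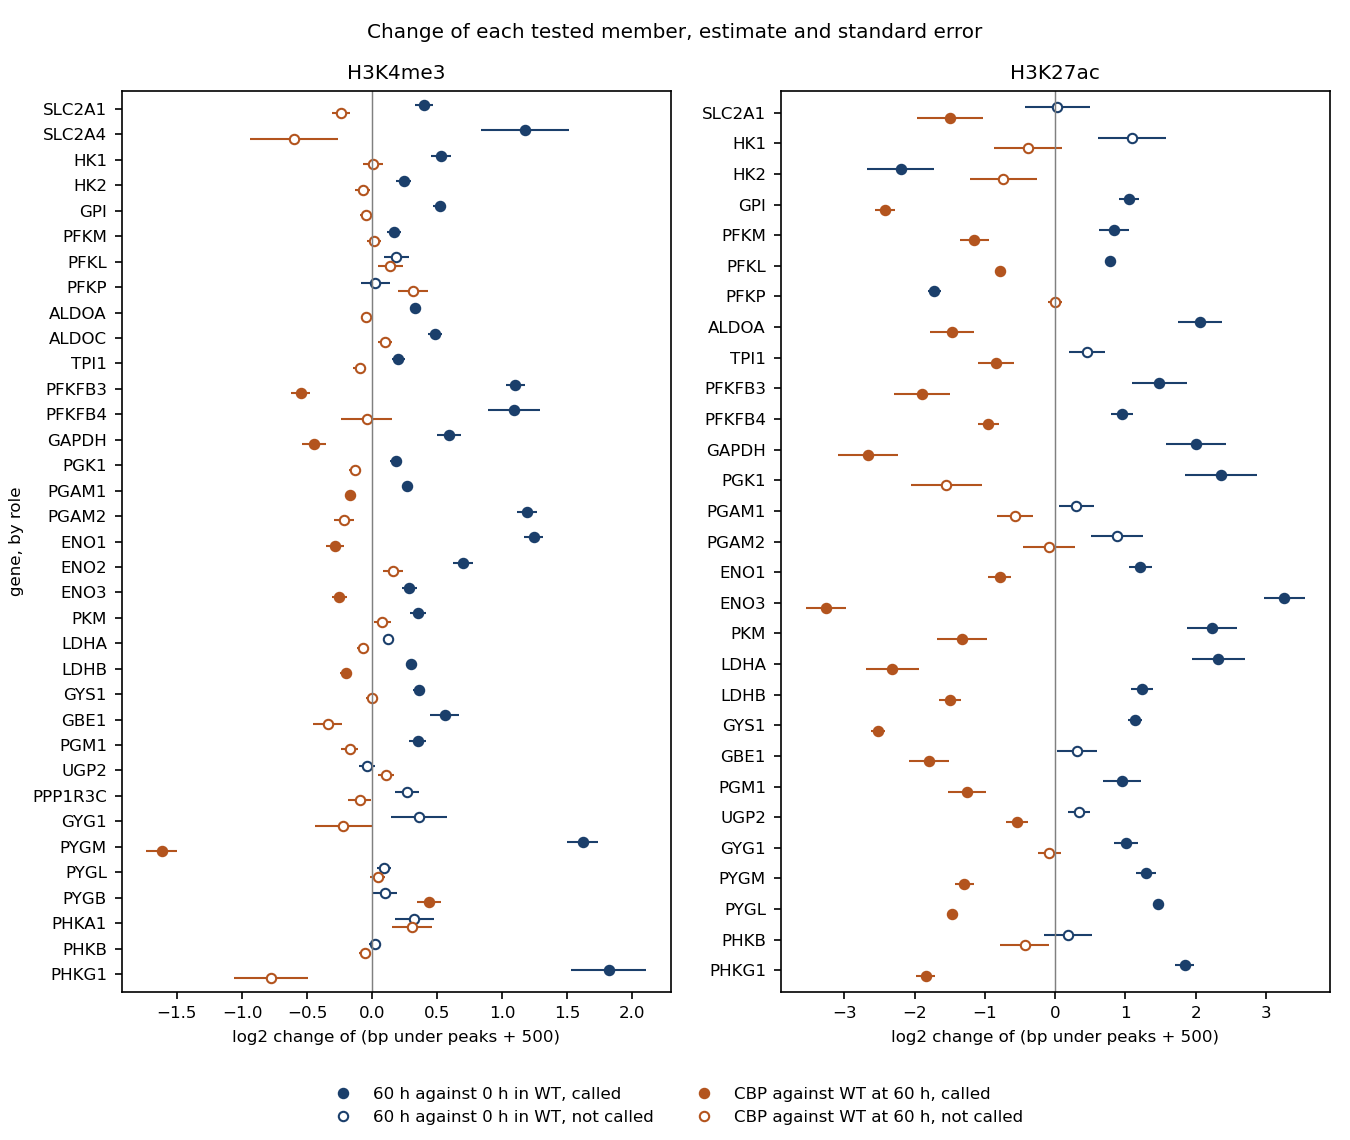
Change in log2(bp + 500) ± standard error for each tested gene (rows, by role), at 60 h against 0 h in WT and for CBP against WT at 60 h, in H3K4me3 and H3K27ac. Filled points passed an adjusted p below 0.05 and open points did not. The WT 60 h libraries enter both comparisons, and a change where a condition has no base depends on the added 500 bp. In H3K27ac, 19 filled points lie to the right at 60 h in WT, and 21 lie to the left for CBP at 60 h.

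At 60 h, the comparison of CBP with WT asks how inhibitor-treated cells differ after differentiation. H3K27ac was lower in CBP at 21 of the 29 tested genes and higher at 0, where 45.8% of all genes were lower and 3.03% higher. For PFKL, PFKFB4, PYGM, PYGL and PHKG1, which passed the filter only through WT at 60 h, no higher value in CBP was possible. PFKM, TPI1, GAPDH, PGK1 and LDHA also passed the H3K27ac filter only with WT at 60 h. The median over the tested genes was -1.29, beside -0.72 over all genes. In H3K4me3, 7 of 35 genes were lower and 1 higher, where 7.36% of all genes were lower and 10.3% higher. Its medians were -0.07 for the tested genes and 0.04 for all genes. With lengths scaled to a common distribution, 10 genes were lower in H3K27ac and 0 higher, beside 13.4% and 11.6% of all genes. In H3K4me3 10 were lower and 1 higher under that scaling, beside 9.16% and 9.17%. All 8 H3K4me3 calls held, and 10 of the 21 H3K27ac calls. The H3K27ac differences of PFKL and UGP2 turned to 0.0083 and 0.22, and those of SLC2A1, PFKM, PFKFB4, ALDOA, TPI1, ENO1, PKM, PGM1 and PYGM no longer passed. The WT libraries at 60 h are those of the comparison with 0 h, so the 2 comparisons share data. Leaving out the first or the second WT library at 60 h left 7 and 10 genes lower in H3K27ac, of 24 that then passed the filter, and 1 lower in H3K4me3 in either case. The H3K4me3 calls of ENO1, ENO3, GAPDH, PGAM1, LDHB and PYGB were lost without either of these WT libraries. Among the H3K27ac calls followed by gene, those of ENO1 and PFKM were lost without the first of these WT libraries. The calls of SLC2A1, PFKFB3, ALDOA, TPI1, PKM, LDHB, PGM1, UGP2 and GBE1 were not followed by gene, and some of them were lost as well.

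At the top of the pathway, SLC2A1 had 1.86 and 1.78 kb of H3K27ac in WT and 0.854 and 0 kb in CBP, a difference of -1.50 ± 0.46 (adjusted p = 0.0461). With bases nearer to ZNF691 left out it did not pass (adjusted p = 0.086). Neither hexokinase passed in H3K27ac. HK1 had 6.68 and 5.05 kb in WT and 4.58 and 4.09 kb in CBP, and HK2 had 0.886 and 0 kb in WT and no base in CBP. In upper glycolysis, 7 of 8 tested genes were lower in H3K27ac, beside 45.8% of all genes. ALDOA had 2.25 and 2.4 kb in WT and 0.387 and 0.669 kb in CBP (-1.47 ± 0.31 (adjusted p = 0.0139)), and PFKFB3 had 2.1 and 2.13 kb in WT and 0.485 and 0 kb in CBP (-1.90 ± 0.39 (adjusted p = 0.0131)). GPI, with 1.97 and 2.38 kb in WT, had no listed base in CBP (adjusted p = 0.000143). The same held for TPI1, PFKFB4, PFKM and PFKL, whose adjusted p ranged from 0.000125 for PFKL to 0.0436 for TPI1. In these genes the 2 WT libraries were above both CBP libraries. PFKFB4, PFKL, PFKM and TPI1 passed the filter only with WT at 60 h, so that their p-values partly reflect that selection. H3K4me3 of upper glycolysis was lower in CBP at PFKFB3 alone of 9 genes, beside 7.36% of all genes. PFKFB3 had 4.14 and 4.57 kb in WT and 2.88 and 2.75 kb in CBP (-0.55 ± 0.07 (adjusted p = 0.00493)). When the window was reduced to 5 kb around the gene's 2 ends, the PFKFB3 difference was 0.27, in the opposite direction.

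Of lower glycolysis, 6 of 9 tested genes were lower in H3K27ac and 5 of 10 in H3K4me3, beside 45.8% and 7.36% of all genes. The summed H3K27ac was 15 and 11.3 kb in CBP, beside 39.7 and 36.4 kb in WT. LDHB had 2.27 and 1.99 kb in WT and 0.56 and 0.312 kb in CBP (-1.50 ± 0.16 (adjusted p = 0.00111)), and PKM had 12.8 and 13.7 kb and 5.4 and 4.58 kb (-1.33 ± 0.36 (adjusted p = 0.0305)). With lengths scaled to a common distribution, the PKM difference was -0.79 and did not pass (adjusted p = 0.0915 from limma). GAPDH and LDHA had 3.03 and 2.32 kb and 1.99 and 2 kb in WT and no listed base in CBP, at adjusted p = 0.00536 and 0.00569. Both passed the filter only with WT at 60 h, so that these p-values partly reflect that selection. PGK1 had 2.11 and 2.01 kb in WT and 1.04 and 0 kb in CBP, and did not pass (-1.55 ± 0.51 (adjusted p = 0.0548)). In H3K4me3, GAPDH had 7.3 and 6.68 kb in WT and 4.53 and 5.5 kb in CBP (-0.45 ± 0.09 (adjusted p = 0.021)). With flank bases nearer to IFFO1 or NCAPD2 left out, that difference was -0.18 and did not pass (adjusted p = 0.115). LDHB was lower in H3K4me3 too, with 2.33 and 2.29 kb in WT and 1.99 and 1.9 kb in CBP (-0.20 ± 0.04 (adjusted p = 0.0243)). That call was lost without either of the WT libraries. PKM and LDHA had H3K4me3 of 8.11 and 8.3 kb and 2.67 and 2.69 kb in CBP, and neither differed by a margin that passed.

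Glycogen synthesis was lower in H3K27ac at 4 of 5 tested genes and at none of 6 in H3K4me3, beside 45.8% and 7.36% of all genes. GYS1 had the lowest adjusted p of the 4, with 6.82 and 6.67 kb of H3K27ac in WT and 0.692 and 0.85 kb in CBP (-2.51 ± 0.10 (adjusted p = 0.00011)). Its H3K4me3 was 10.1 and 9.95 kb in WT and 9.94 and 10.1 kb in CBP, with overlapping groups (-0.00 ± 0.05 (adjusted p = 0.993)). GBE1 had 5.64 and 3.9 kb of H3K27ac in WT and 1.34 and 0.718 kb in CBP (-1.80 ± 0.28 (adjusted p = 0.00497)). PGM1 had 1.16 and 1.02 kb in WT and 0 and 0.388 kb in CBP (-1.25 ± 0.27 (adjusted p = 0.0152)), and UGP2 had 2.4 and 2.32 kb and 1.75 and 1.22 kb (-0.54 ± 0.16 (adjusted p = 0.0379)). GYG1 was the exception, at 1.45 and 2.16 kb in WT and 1.7 and 1.61 kb in CBP (-0.08 ± 0.17 (adjusted p = 0.735)). In glycogen breakdown, PHKG1 had 1.08 and 1.53 kb of H3K27ac in WT and none in CBP (adjusted p = 0.000285), and PHKB had 1.63 and 1.24 kb and 1.03 and 0.82 kb and did not pass (-0.43 ± 0.35 (adjusted p = 0.342)).

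At 0 h, the comparison of CBP with WT asks how treated cells differ before differentiation. In H3K4me3, 13 of 35 genes were lower in CBP and 2 higher, where 41.7% of all genes were lower and 1.19% higher. The median was -0.13, beside -0.19 over all genes. Once lengths were scaled to a common distribution, the split turned to 3 lower and 9 higher, beside 13.6% and 16% of all genes, and the median of all genes was 0.06. Of the 15 calls 5 held, GYS1 and PHKB turned to 0.0561 and 0.0865, and PFKL, PFKFB3, TPI1, GAPDH, ENO3, UGP2, GBE1 and PYGL no longer passed. TPI1 and PHKB also did not pass with flank bases nearer to another gene left out. In H3K27ac, 6 of 29 genes were lower and 0 higher, where 32.6% of all genes were lower and 1.4% higher. Scaling left 2 lower and 2 higher, beside 15.5% and 8.9%, and HK1, PFKP, GYS1 and PHKB no longer passed. Among calls followed by gene, the H3K27ac calls of HK1 and PHKB were lost on leaving out any of several single libraries. The same held for the H3K4me3 calls of ALDOC, GBE1 and PFKL. The medians were -0.44 for the tested genes and -0.46 for all genes.

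By role, H3K4me3 at 0 h was lower in CBP at 1 of 2 uptake genes, 4 of 9 of upper glycolysis and 3 of 10 of lower glycolysis. It was lower at 3 of 6 of glycogen synthesis and 2 of 6 of glycogen breakdown. Of all genes, 41.7% were lower. SLC2A1 had 2.08 and 2.33 kb in WT and 1.21 and 1.33 kb in CBP (-0.61 ± 0.07 (adjusted p = 0.0011)), and ALDOA had 6.32 and 6.29 kb and 4.25 and 4.24 kb (-0.52 ± 0.03 (adjusted p = 0.000223)). GBE1 had 1.36 and 1.42 kb and 0.73 and 0.991 kb (-0.48 ± 0.11 (adjusted p = 0.0152)). The WT libraries were above the CBP libraries at each of these 3 genes. PFKFB3, TPI1, GAPDH, GYS1, UGP2 and PHKB were also lower, with changes of -0.38 to -0.14. The 2 genes that were higher both belong to upper glycolysis. GPI had 1.96 and 1.85 kb in WT and 2.75 and 2.73 kb in CBP (0.43 ± 0.05 (adjusted p = 0.00113)), and ALDOC had 1.29 and 1.42 kb and 1.61 and 1.6 kb (0.19 ± 0.05 (adjusted p = 0.0322)).

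H3K27ac at 0 h was lower at HK1, PFKP, PGAM1, LDHB, GYS1 and PHKB. HK1 had 2.38 and 2.55 kb in WT and 0.903 and 0 kb in CBP (-1.82 ± 0.48 (adjusted p = 0.0378)), and GYS1 had 2.73 and 2.86 kb and 1.11 and 1.05 kb (-1.06 ± 0.10 (adjusted p = 0.00138)). LDHB had 0.585 and 0.644 kb in WT and no listed base in CBP (adjusted p = 0.00441). PHKB had 1.16 and 1.23 kb in WT and 0.512 and 0 kb in CBP (-1.25 ± 0.35 (adjusted p = 0.0426)).

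Within CBP cells, 60 h against 0 h gave 28 of 35 genes higher and 0 lower in H3K4me3, where 80.3% of all genes were higher and 1.25% lower. With lengths scaled to a common distribution, 6 were higher and 11 lower, beside 21.8% and 34.9% of all genes, and 6 of the 28 calls held. In H3K27ac 7 of 29 were higher and 3 lower, where 30.7% of all genes were higher and 8.01% lower. The 7 were HK1, PGAM1, PGAM2, ENO1, PKM, LDHB and GYG1, and the 3 were HK2, GPI and PFKP. Scaling gave 5 higher and 7 lower, beside 24.1% and 17%. The inhibitor difference was also compared between the times, as the effect at 60 h minus the effect at 0 h. In H3K4me3 it was positive at 8 of 35 genes and negative at 3, where 37.9% of all genes were positive and 3.55% negative. Scaling turned this split to 1 positive and 11 negative, beside 11% and 12.2%. In H3K27ac it was negative at 10 of 29 genes and positive at 2, where 18.9% of all genes were negative and 11.5% positive. Scaling left 7 negative and 1 positive, beside 11.9% and 16.1%. GPI was negative in both marks, at -0.48 ± 0.07 (adjusted p = 0.00361) in H3K4me3 and -2.57 in H3K27ac, and PFKFB3 was negative in H3K27ac, at -2.43 ± 0.56 (adjusted p = 0.0274).

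The 4 enzyme families with a muscle form were compared within each library, as log2(bp + 500) of the muscle form minus the mean of the common forms. With 2 libraries against 2, an exact two-sided permutation test cannot go below 0.333, and 16 such tests were made. No p below therefore reaches a threshold, before or after adjustment, and the values are given with their spread.

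Enolase turns 2-phosphoglycerate into phosphoenolpyruvate. ENO3, the enolase of muscle (gene 692156, chromosome 12, 51954614 to 51959991), had 5.4 and 5.54 kb of H3K27ac in WT at 60 h. In every other condition it had at most 0.277 kb, with 0 and 0.277 kb in WT at 0 h, no base in CBP at 0 h, and 0 and 0.276 kb in CBP at 60 h. The change was 3.26 ± 0.29 (adjusted p = 0.000526) at 60 h against 0 h in WT and -3.26 ± 0.29 (adjusted p = 0.000652) for CBP against WT at 60 h. ENO3 is 5.38 kb long, and SPAG7 and PFN1 lie within its window. With flank bases nearer to those genes left out, WT at 60 h had 1.95 and 2.5 kb, and the changes were 2.12 and -2.44, both called at adjusted p of 0.00106 and 0.000804. The gene span alone held 0.623 and 1.25 kb in WT at 60 h. The ENO3 window held H3K4me3 in every condition, at 6.56 and 6.75 kb in WT and 5.16 and 4.67 kb in CBP at 0 h, and 8.19 and 8.24 kb in WT and 7.07 and 6.58 kb in CBP at 60 h. Much of it lay past the gene, over PFN1, which runs from 8.03 to 11 kb from the low-coordinate end of ENO3. At 0 h the widest peak ran from 5.14 and 7.67 kb to 11.5 kb in WT. In CBP it ran from 7.65 to 11.5 kb and from 6.98 to 11.3 kb. H3K4me3 in the window rose in WT by 0.28 ± 0.06 (adjusted p = 0.00753). The change of 0.29 without bases nearer to the neighbours did not pass (adjusted p = 0.146), nor did the 0.0108 with lengths scaled to a common distribution (adjusted p = 0.902). It was lower in CBP, with differences of -0.40 ± 0.06 (adjusted p = 0.00255) at 0 h and -0.25 ± 0.06 (adjusted p = 0.0284) at 60 h, and those differences were -1.35 and -0.70 without the bases nearer to the neighbours. Scaling reduced the difference at 0 h to -0.11, which did not pass (adjusted p = 0.198). In WT at 60 h, 1 peak ran without a break from 2.94 to 11.5 kb from the gene's low-coordinate end, whereas in CBP at 60 h the same stretch was broken from 3.58 to 5.01 kb in 1 library and from 3.59 to 5.4 kb in the other.

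ENO1, the enolase of most tissues (chromosome 6, 69385879 to 69401664, with no other gene in its window), also gained both marks in WT. Its H3K4me3 went from 2.06 and 2.23 kb to 6.05 and 5.45 kb (1.24 ± 0.07 (adjusted p = 6.43e-05)), and its H3K27ac from 1.76 and 1.66 kb to 5.3 and 4 kb (1.21 ± 0.17 (adjusted p = 0.00255)). In CBP at 60 h ENO1 had 4.54 and 4.71 kb of H3K4me3 (-0.29 ± 0.07 (adjusted p = 0.0419)) and 2.26 and 2.67 kb of H3K27ac (-0.79 ± 0.17 (adjusted p = 0.0136)). Scaling reduced the H3K27ac difference to -0.0833 (adjusted p = 0.767). At 0 h CBP had 2 and 2.26 kb of H3K4me3 and 1.5 and 1.21 kb of H3K27ac, and neither passed. ENO2, the neuronal enolase, whose window overlaps ATN1, LOC110260590 and LRRC23, rose in H3K4me3 from 1.82 and 2.1 kb to 3.32 and 3.64 kb in WT (0.70 ± 0.08 (adjusted p = 0.000842)), with 1.83 and 1.62 kb and 3.87 and 4.02 kb in CBP at 0 h and 60 h. ENO2 had 0.31 kb of H3K27ac in 1 WT library at 60 h and none elsewhere. The muscle-minus-common difference in H3K27ac was therefore 2.48 higher at 60 h than at 0 h in WT (pooled SD 0.437) and 2.69 lower in CBP than in WT at 60 h (pooled SD 0.388). In H3K4me3 it fell by 0.68 at 60 h in WT (pooled SD 0.0458), with larger gains at ENO1 and ENO2 than at ENO3 on this scale, and it was 0.19 lower in CBP at 60 h (pooled SD 0.0732). All 4 contrasts separated the groups fully, at the smallest exact p of 0.333.

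Phosphofructokinase is the committed step of glycolysis. PFKM, its muscle form (gene 733601, chromosome 5, 78475473 to 78525052), had 2.23 and 2.27 kb of H3K4me3 in WT and 2.08 and 1.97 kb in CBP at 0 h, and 2.71 and 2.47 kb and 2.68 and 2.55 kb at 60 h. All 8 libraries listed a peak at the low-coordinate end, shared with the end of SENP1, and another about 23 to 24 kb inside the gene, and ASB8 lies at the far end of the window. The rise in WT was 0.17 ± 0.05 (adjusted p = 0.0451), and it was -0.03 with lengths scaled to a common distribution. Its H3K27ac was 0.275 and 0 kb in WT at 0 h and 0.658 and 0.564 kb in WT at 60 h. It had no listed base in CBP at either time, and it passed the filter only with WT at 60 h. It rose by 0.83 ± 0.21 (adjusted p = 0.0205) in WT, and the difference in CBP at 60 h passed (adjusted p = 0.00835). Neither passed with lengths scaled to a common distribution (adjusted p = 0.479 and 0.225), and the difference in CBP did not pass without the first WT library at 60 h (adjusted p = 0.0644 from limma). PFKL, the form of liver, had 0.361 and 0.356 kb of H3K27ac in WT at 60 h and no base in the other 6 libraries. Its H3K4me3 was 1.53 and 1.24 kb in WT and 0.987 and 0.981 kb in CBP at 0 h (-0.34 ± 0.10 (adjusted p = 0.034)), and 1.48 and 1.8 kb and 1.89 and 1.81 kb at 60 h, where neither change passed. PFKP, the platelet form, with PITRM1 in its window, went the other way in H3K27ac. It had 1.23 and 1.07 kb in WT and 0.279 and 0.255 kb in CBP at 0 h (-1.10 ± 0.10 (adjusted p = 0.00111)), and no base in either at 60 h (adjusted p = 0.000101 for the fall in WT). Its H3K4me3 did not differ by a margin that passed between times in WT or between CBP and WT, at 2.08 and 1.94 kb and 2.01 and 2.1 kb in WT and 1.34 and 1.88 kb and 2.67 and 2.68 kb in CBP. The muscle-minus-common difference in H3K27ac was 1.3 higher at 60 h in WT (pooled SD 0.286) and 0.76 lower in CBP at 60 h (pooled SD 0.059), with separate groups at the smallest exact p of 0.333. In H3K4me3 the groups overlapped at 60 h against 0 h in WT (difference 0.06, exact permutation p = 0.667).

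Phosphoglycerate mutase moves a phosphate between carbons of 3-phosphoglycerate. PGAM2, its muscle form (gene 100188980, chromosome 18, 48693832 to 48712787), had 2.48 and 2.57 kb of H3K4me3 in WT at 0 h and 6.1 and 6.7 kb at 60 h, a rise of 1.19 ± 0.08 (adjusted p = 9.95e-05). VOPP1 ends at the gene's low-coordinate end and DBNL lies past its other end, and the H3K4me3 peak listed before the low-coordinate end in every library lies within VOPP1 or, in CBP at 60 h, runs from it into the gene. The gain lay at the high-coordinate end, where the listed domain ran from 15.8 to 16.8 kb at 0 h and from 15.1 to 19.4 kb at 60 h. CBP had 1.55 and 1.28 kb at 0 h (-0.66 ± 0.08 (adjusted p = 0.00132)) and 5.54 and 5.36 kb at 60 h (-0.21 ± 0.08 (adjusted p = 0.115)), so that the difference at 0 h passed and the one at 60 h did not. At 0 h, CBP listed the high-coordinate peak in 1 of 2 libraries. Unlike ENO3, PFKM and PYGM, PGAM2 had H3K27ac in every library, at 1.61 and 1.26 kb in WT and 0.607 and 0.253 kb in CBP at 0 h, and 3.8 and 2.44 kb and 3.98 and 2.01 kb at 60 h. Some of the CBP bases at 60 h lay past the gene, which ends at 19 kb, toward or within DBNL. Those peaks ran from 18 to 20 kb and 21.8 to 22.2 kb in the first library and from 19.8 to 20.1 kb in the second. The WT peaks at 60 h ended at 18.9 and 18.8 kb. No H3K27ac difference passed at PGAM2 in WT or between CBP and WT. The 60 h groups overlapped, and the standard error of the difference between them was large beside its size (-0.08 ± 0.37 (adjusted p = 0.91)). PGAM1, the common form, rose in H3K4me3 from 3.1 and 3.05 kb to 3.77 and 3.86 kb in WT (0.27 ± 0.04 (adjusted p = 0.00341)), and CBP had 3.07 and 2.93 kb at 0 h and 3.42 and 3.26 kb at 60 h (-0.17 ± 0.04 (adjusted p = 0.047)). Its H3K27ac was 2.04 and 1.94 kb in WT and 0.333 and 0 kb in CBP at 0 h (-1.95 ± 0.26 (adjusted p = 0.00413)), and 2.71 and 2.44 kb and 1.73 and 1.4 kb at 60 h. The muscle-minus-common difference in H3K4me3 was 0.92 higher at 60 h in WT (pooled SD 0.0555), with separate groups at the smallest exact p of 0.333. For CBP against WT at 60 h the groups overlapped in both marks, with differences of -0.04 in H3K4me3 and 0.49 in H3K27ac, each at an exact permutation p of 0.667.

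Glycogen phosphorylase releases glucose 1-phosphate from glycogen. PYGM, its muscle form (gene 733659, chromosome 2, 7409330 to 7421256), was listed for H3K4me3 only in WT at 60 h, with 0.905 and 1.18 kb, and was at 0 in the other 6 libraries. Both contrasts passed in limma, at adjusted p = 0.000136 for 60 h against 0 h in WT and 0.000525 for CBP against WT at 60 h. In both marks PYGM passed the filter only through WT at 60 h, and the other conditions had no spread. The direction of these contrasts was thus fixed, and their p-values are no separate support for the pattern. Most of those bases lay 0.271 to 1.49 kb inside the low-coordinate end. SF1 and RASGRP2 lie at the limits of the window. H3K27ac followed the same pattern over libraries, with 0.909 and 0.562 kb in WT at 60 h and no base elsewhere (adjusted p = 0.00105 and 0.00129). These H3K27ac bases lay beyond the high-coordinate end of the gene, from 12.2 to 12.8 kb, with 1 more peak at 14.4 kb in the first library, and none within the gene span. PYGL, the liver form, had 0.845 and 0.925 kb of H3K27ac in WT at 60 h and none in the other 6 libraries, although its H3K4me3 was present throughout, at 1.82 and 1.77 kb in WT and 1.28 and 1.44 kb in CBP at 0 h (-0.31 ± 0.06 (adjusted p = 0.00653)), and 1.98 and 1.91 kb and 1.98 and 2.05 kb at 60 h. ABHD12B overlaps the low-coordinate end of PYGL. PYGB, the brain form, whose window overlaps ABHD12, had no listed H3K27ac. It was the 1 gene called higher in H3K4me3 in CBP at 60 h, at 0.995 and 0.837 kb beside 0.57 and 0.523 kb in WT (0.43 ± 0.09 (adjusted p = 0.0242)). At 0 h it had 0.532 and 0.425 kb in WT and 0.568 and 0.563 kb in CBP. The muscle-minus-common difference in H3K4me3 was 1.52 higher at 60 h in WT (pooled SD 0.161) and 1.86 lower in CBP at 60 h (pooled SD 0.157). Both separated the groups at the smallest exact p of 0.333, and both sizes depend on the added 500 bp since PYGM was at 0 on 1 side.

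**Figure D3:**
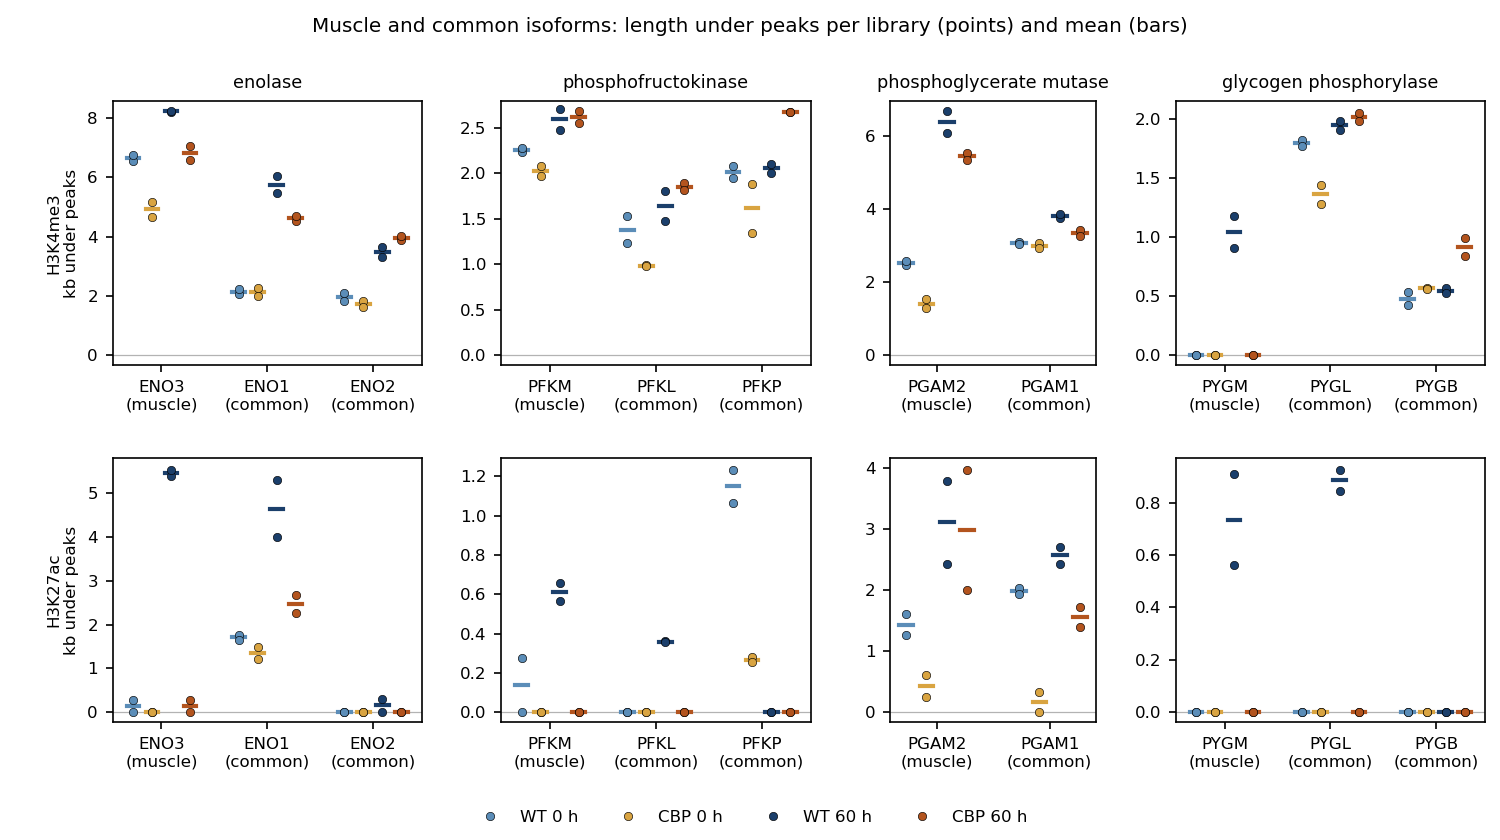
Length under peaks in kb for the muscle and common genes of the 4 enzyme families, with 1 point per library and bars at the mean of 2, in H3K4me3 and H3K27ac. ENO3 and PYGM reach their highest H3K27ac in the WT 60 h libraries alone, while PGAM2 H3K27ac in CBP at 60 h (3.98 and 2.01 kb) overlaps that in WT (3.8 and 2.44 kb). Some of the PGAM2 bases in CBP at 60 h lie past the gene.

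**Figure D4:**
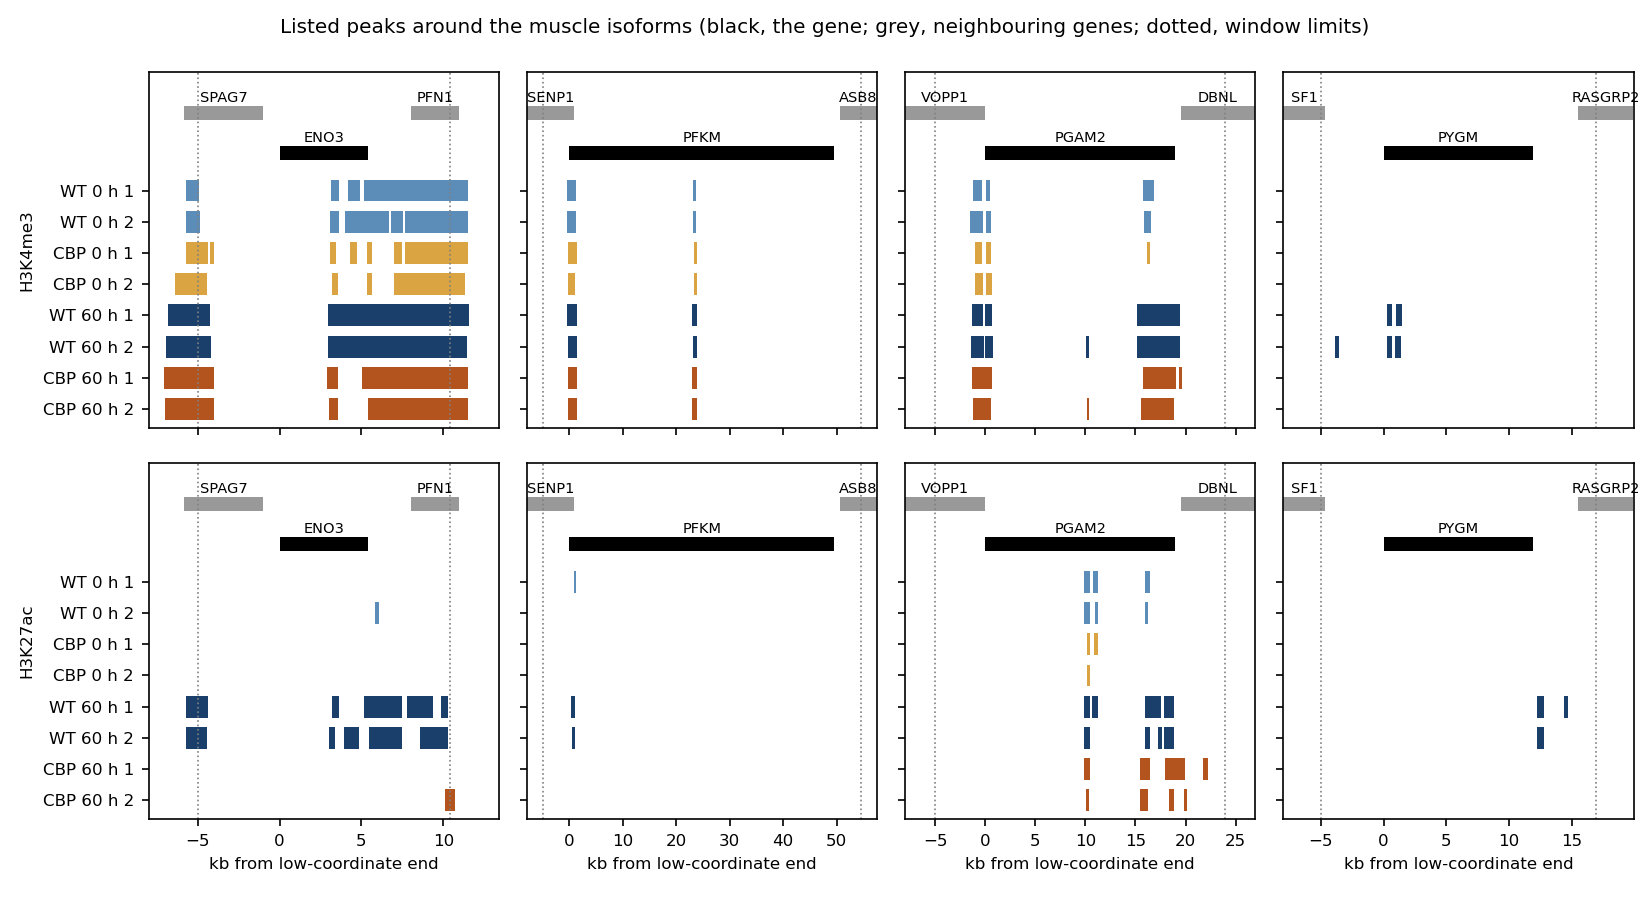
Listed H3K4me3 and H3K27ac peaks around ENO3, PFKM, PGAM2 and PYGM in each library, by distance in kb from the gene's low-coordinate end. The black bar is the gene, grey bars are neighbouring genes and dotted lines are the limits of the window. H3K27ac at PYGM lies past the gene, from 12.2 to 12.8 kb, in the 2 WT 60 h libraries.

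H3K27me3 was not listed in 32 of the 36 windows, and the 4 others were tested. In CBP at 0 h, where 77.2% of all tested genes were higher than in WT and 0% lower, 3 of the 4 were higher. WT at 0 h had no base in any of the 36 windows. Without scaling, the direction at 0 h was thus fixed for all 4. With lengths scaled to a common distribution, 0 were higher and 2 lower, beside 11.7% and 18% of all genes, and none of the 3 calls held. SLC2A4 had 10.2 and 2.89 kb in CBP at 0 h, no base in WT at 0 h, and 1.51 and 0.501 kb in WT and 2.24 and 0.768 kb in CBP at 60 h (adjusted p = 0.00423 at 0 h). The gene span itself held 4.64 and 1.21 kb in CBP at 0 h and none in any other library, and the WT bases at 60 h lay past the gene, within YBX2. PYGM had 2.66 and 0.858 kb in CBP at 0 h and none elsewhere (adjusted p = 0.00442), and those bases lay past the gene, toward RASGRP2. PYGM also passed the H3K27me3 filter only through CBP at 0 h, so its p-value partly reflects that selection. With flank bases nearer to another gene left out, PYGM and ALDOA fell below the filter. ALDOA had 0.715 and 0.416 kb in CBP at 0 h and 0.329 and 0.358 kb in CBP at 60 h, in the flanks only, and none in WT (adjusted p = 0.00373 at 0 h). ENO2 had 1.11 and 0 kb in CBP at 0 h and 0.476 and 0.457 kb in CBP at 60 h, and did not pass. At 60 h, 0 of the 4 passed in either direction between CBP and WT, where 12.1% of all genes were higher and 2.62% lower, and 0 of 4 passed between times in WT, where 21% were higher and 0.619% lower. The difference between the CBP effects at 60 h and 0 h was negative at 2 of the 4, SLC2A4 and PYGM, where 53% of all genes were negative and 3.95% positive.

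Other genes of glucose use were read from 5 lists with 98 further genes, of which 96 were in the gene table. In H3K4me3 at 60 h against 0 h in WT, 9 of 15 tested glycolytic and lactate genes rose and 1 fell. Among glycogen genes 11 of 24 rose, among glucose transporters 4 of 10, among genes of pyruvate entry and gluconeogenesis 8 of 16, and of the citric acid cycle 2 of 18, with none lower in these 4 lists. These counts stand beside the 42.2% of all genes that rose. The medians of the 5 lists, in that order, were 0.21, 0.26, 0.13, 0.32 and 0.13, beside 0.18 over all genes. SLC16A3, the lactate exporter MCT4, went from no listed base to a mean of 3.29 kb (adjusted p = 3.25e-05 from limma). SLC2A3, the transporter GLUT3, went from 1.33 to 3.08 kb on average, and PDK1, which restrains pyruvate dehydrogenase, from 1.18 to 2.49 kb. In CBP at 60 h SLC16A3 had a mean of 1.17 kb, lower than in WT, while TXNIP, an inhibitor of glucose uptake, had 3.08 kb beside 1.66 kb in WT.

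H3K27ac of the same lists at 60 h in WT rose at 3 of 7 other glycolytic and lactate genes, 8 of 17 glycogen genes, 5 of 7 transporters, 6 of 11 pyruvate genes and 11 of 16 citric acid cycle genes, beside 46.8% of all genes. The list medians were 0.82, 0.95, 0.82, 0.92 and 1.12, beside 0.69 over all genes. In CBP at 60 h H3K27ac was lower than in WT at 4 of 7, 8 of 17, 2 of 7, 6 of 11 and 9 of 16 genes of these lists and higher at none, beside 45.8% of all genes. The list medians were -1.19, -1.20, -0.78, -0.92 and -1.03, beside -0.72 over all genes. At 0 h, H3K4me3 was lower in CBP at 3 of 15, 14 of 24, 4 of 10, 4 of 16 and 5 of 18 genes, beside 41.7% of all genes, and H3K27ac at 1 of 7, 5 of 17, 0 of 7, 3 of 11 and 6 of 16, beside 32.6%.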

How the data were processed

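Peak lists were deposited for each library separately. The submitters' processing notes name Trimmomatic, MACS2 2.1.0 and the build Sscrofa11.1, with no aligner or further settings. Per the file headers, each peak has the authors' integer score, a fold enrichment (a ratio), and a −log10 p-value and a −log10 q-value. The quantity used here, length in bp, was computed from the peak coordinates the authors deposited. H3K4me3 and H3K27ac lists are narrow peaks and H3K27me3 lists broad peaks. Deposited lists held 14898 to 17364, 8969 to 23437 and 1338 to 19317 peaks, and no read depth comes with them, so no counting interval can be given. Peak length measures extent, not signal height, and a longer list gives longer values.

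Peaks of a library were merged and their bases counted in each gene span extended by 5000 bp, over 19533 protein-coding genes of RefSeq Sscrofa11.1. The gene table gives no strand, so gene ends are named by coordinate. LDHB has 2 records, and the longer, on chromosome 5, was used. Values were tested on log2(bp + 500) with limma 3.58.1 in R 4.3.3 (trend and robust), keeping the 13391, 10293 and 4198 genes where 2 or more of a mark's 8 libraries held 200 bp. The 4 conditions entered 1 fit with 4 residual degrees of freedom, and p-values were adjusted by Benjamini-Hochberg over all genes of a contrast. Of the members tested, 2 of 35 (H3K4me3), 17 of 29 (H3K27ac) and 4 of 4 (H3K27me3) had a condition with no base, where the test rests on the moderated variance. Isoform differences were tested by exact permutation. The script was tested on simulated data. The members and lists were chosen with earlier results of these data known. Members chosen by rule were those of the 4 isoform families and, per mark and comparison, up to 5 called members per direction. The latter had the largest changes among those whose groups did not overlap. From the pathway lists, up to 2 genes per direction were eligible. The other members were described under their role, many of them also with values. Alternatives were a −log10 q of at least 5, lists of equal length, quantile scaling, added lengths of 100 and 2000 bp, no filter, other windows, the replicate number as a block, and each library left out. Leaving out flank bases nearer to another gene was added after seeing the data.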

Additional observations from a re-analysis of the deposited data

Results flagged for a closer look

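The difference between CBP and WT was itself different at 60 h and at 0 h for 25 values, by limma with an adjusted p below 0.05. Each is given as the CBP effect at 60 h minus that at 0 h, in log2(bp + 500). Where a condition had no base, the size depends on the added 500 bp. In H3K4me3, where 11 of 35 genes differed, 8 were positive: PFKP 0.57, PFKL 0.48, ALDOA 0.48, PGAM2 0.45, UGP2 0.45, SLC2A1 0.37, PYGL 0.35 and GYS1 0.25. The 3 negative ones were PYGM -1.62, PHKG1 -1.28 and GPI -0.48. Of all genes, 37.9% were positive and 3.55% negative in this contrast. In H3K27ac, 12 of 29 genes differed. The 10 negative ones were ENO3 -2.94, LDHA -2.91, GPI -2.57, PFKFB3 -2.43, PHKG1 -1.84, PYGL -1.47, GYS1 -1.45, PYGM -1.29, PFKFB4 -0.95 and PFKL -0.78, and the 2 positive ones were PGAM1 1.37 and PFKP 1.10. Of all genes, 18.9% were negative and 11.5% positive. PFKL, PFKFB4, PYGM, PYGL and PHKG1 passed the H3K27ac filter only through WT at 60 h, as PYGM did in H3K4me3, so the sign of these values was fixed. LDHA also passed the H3K27ac filter only with WT at 60 h. In H3K27me3, SLC2A4 at -3.19 and PYGM at -2.05 differed, with bases in both CBP libraries at 0 h. The sign at PYGM was fixed, since PYGM passed the H3K27me3 filter only through CBP at 0 h. GPI was negative in both active marks, at 0.43 more H3K4me3 in CBP than in WT at 0 h and 0.05 less at 60 h. PFKL, PYGL and GYS1 were positive in H3K4me3 and negative in H3K27ac. With lengths scaled to a common distribution, 4 of the 11 H3K4me3 values, 8 of the 12 in H3K27ac and 0 of the 2 in H3K27me3 passed in the same direction, and GYS1 in H3K4me3 turned to -0.0207. The H3K4me3 values of GYS1, PGAM2 and PHKG1 did not pass with flank bases nearer to another gene left out, and PYGM in H3K27me3 fell below the filter.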

How the results depend on the processing

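Counts below are of members called, higher and lower together, for 60 h against 0 h in WT, CBP against WT at 0 h and CBP against WT at 60 h. Quantile scaling gave 15 for H3K4me3 at 60 h in WT (25 as reported), 10 for H3K27ac in CBP at 60 h (21) and 3 for H3K27me3 at 60 h in WT (0). Lists of equal length gave 11 for H3K27ac at 60 h in WT (21), 2 in CBP at 0 h (6) and 6 in CBP at 60 h (21), and 0 for H3K27me3 in CBP at 0 h (3). A −log10 q of at least 5 gave 3 for H3K27ac in CBP at 0 h. For H3K27me3, 100 bp added gave 1 at 60 h in WT and 1 in CBP at 60 h (0), while the gene span alone and leaving out flank bases nearer to another gene each gave 1 in CBP at 0 h. The cause of these shifts was not tested. Leaving out 1 library at a time gave, in the order above, 20 to 25, 10 to 14 and 1 to 8 for H3K4me3, 11 to 22, 5 to 8 and 7 to 19 for H3K27ac, and 0 to 0, 2 to 3 and 0 to 2 for H3K27me3. Some isoform differences reversed. In H3K4me3, PFKM at 60 h in WT was -0.0396 with windows around both gene ends, and PGAM2 in CBP at 60 h was 0.0336 in the gene span. In H3K27ac at 60 h in WT, a −log10 q of at least 5 gave PFKM -0.39 and PGAM2 -0.0712, equal lengths gave PGAM2 -0.31, and the gene span gave PYGM -0.65. In H3K27ac in CBP at 60 h, a −log10 q of at least 5 gave PFKM 0.39, and the gene span gave PGAM2 -0.0353 and PYGM 0.65. Under quantile scaling, called changes turned sign at PFKM (-0.0256), TPI1 and PGK1 in H3K4me3 at 60 h in WT, GYS1 and PHKB in H3K4me3 in CBP at 0 h, PFKL (0.0083) and UGP2 in H3K27ac in CBP at 60 h, and ALDOA (-0.63) in H3K27me3 in CBP at 0 h. Within CBP, 15 of 28 H3K4me3 changes and 1 of 10 H3K27ac changes between times turned sign. Of the genes followed under the other alternatives, PFKFB3 (H3K4me3 in CBP at 60 h, 0.27) turned around both gene ends. Leaving out 1 library gave H3K4me3 isoform differences at 60 h in WT of -0.73 to -0.64 for ENO3, -0.0618 to 0.18 for PFKM, 0.87 to 0.96 for PGAM2 and 1.37 to 1.68 for PYGM, and in CBP at 60 h of -0.26 to -0.12, -0.34 to -0.09, -0.0913 to 0.0014 and -2.01 to -1.70. The H3K27ac ranges were 2.15 to 2.81, 1.02 to 1.58, 0.37 to 0.79 and 0.33 to 0.78, and in CBP at 60 h -2.97 to -2.41, -0.82 to -0.70, 0.19 to 0.79 and -0.78 to -0.33. H3K27me3 at a −log10 q of at least 5 could not be fitted, since 1 WT library at 0 h had 0 such peaks. Labels give replicate numbers without saying that they pair libraries, and same-numbered libraries deviated together with correlations of -0.09 to 0.18. With the replicate number as a block, counts were 25, 13 and 7 for H3K4me3, 22, 8 and 19 for H3K27ac, and 0, 3 and 0 for H3K27me3. Depth is unknown, so a gene listed at 0 has no listed peak, which does not show that the mark is absent.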
